A study of Mus musculus with 9 samples.

Results

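RNA of cells sorted as long-term hematopoietic stem cells was compared between mice given 5-fluorouracil (5-FU) followed by saline and mice left untreated. All genes were compared over 6 libraries of the 9 in the series, 3 of the group 5-FU+Saline and 3 of the group Control, as the labels assign them. All mice were C57BL/6 wild type. The treated mice received 250 mg of 5-FU per kg of body weight, the saline is called PBS in the series text, and the marrow was taken on day 8, while the labels do not say when saline was given. The sort is written Lin-Sca1+c-Kit+CD150+C48- in the labels, with the last marker read here as CD48-. The 3 libraries of the group 5-FU+FMT, which received another agent after 5-FU, were not compared. They entered the filter on low counts, the scaling, the estimate of the spread and the principal components. Neither the sex of the mice nor the number of mice behind a library is given in the sources used here, so p-values may measure technical spread alone.

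5-FU is an analogue of uracil. Cells turn it into a nucleotide that locks thymidylate synthase, the enzyme that makes thymidine for DNA, and into nucleotides that enter RNA and DNA in place of the natural ones. In marrow the drug kills cells that are copying their DNA, and stem cells that rest at that time survive and later divide to refill the blood. Long-term stem cells are known for a quiescent state, kept by inhibitors of the cell cycle and by signals from stromal and endothelial cells of the marrow niche, and for giving rise to red cell, platelet, myeloid and lymphoid progenitors.

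Total counts ran from 11098031 to 19095358 in Control and from 15128336 to 19270976 in 5-FU+Saline. Both groups were far apart along the first principal component of all 9 libraries (77.0% of the variance). Control ran from -48.2 to -47.3, 5-FU+Saline from 45.4 to 45.7 and 5-FU+FMT, between them, from 0.569 to 3.81. Sex-linked, ribosomal and immunoglobulin RNA differed between the groups. Xist, which silences an X chromosome in female cells, was at 1.34, 0.734 and 0.533 CPM, the counts per 1000000 counts of a library after scaling, in Control and 1183, 1223 and 1198 in 5-FU+Saline. Genes of the Y chromosome fell but were still present: Ddx3y fell 4.31-fold, Uty 3.30-fold, Kdm5d 2.90-fold and Eif2s3y 3.54-fold, with Ddx3y at 37.8, 37.1 and 41.9 CPM. Control libraries were thus low in Xist and high in Y-linked RNA, and the treated libraries held both kinds. Treatment and sex composition cannot be told apart in this comparison. Ribosomal and small RNAs took 1.65% ± 0.0611 of counts in Control and 0.198% ± 0.0160 in 5-FU+Saline, and immunoglobulin genes 3.20% ± 0.0393 and 1.81% ± 0.0236 (SD, n = 3, as for every ± below). Most of the ribosomal and small RNA counts came from CT010467.1, an rRNA, and Gm23935, annotated as a miRNA. Those entries went from 10915 and 5205 CPM in Control to 1245 and 378 in 5-FU+Saline. The part of these differences in the results was not tested.

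**Figure D1:**
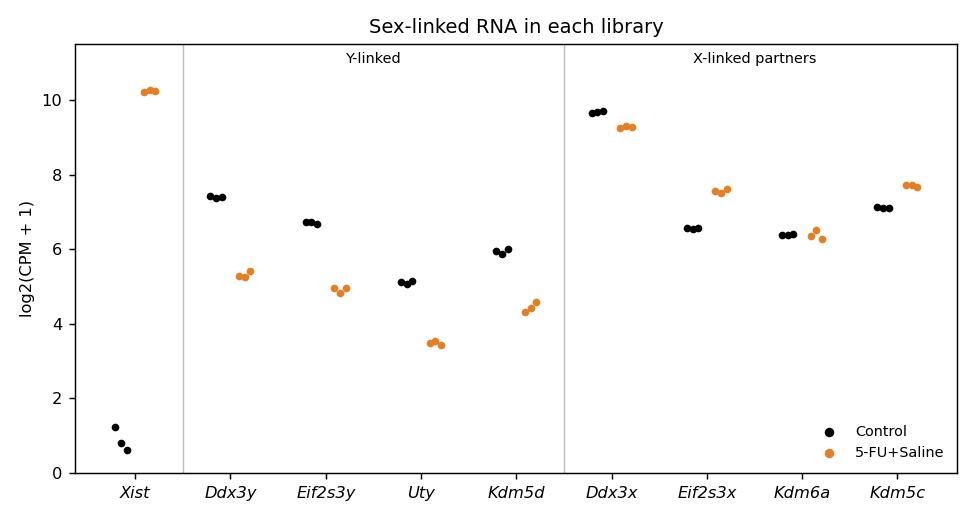
Level of Xist, 4 Y-linked genes and their X-linked partners as log2(CPM + 1) in each library (points), Control in black and 5-FU+Saline in orange. Xist is near 0 in every Control library and far above it in every 5-FU+Saline library, and all 4 Y-linked genes are lower in 5-FU+Saline without reaching 0.

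The X-linked partners went different ways. Eif2s3x, a translation initiation subunit, rose 2.02-fold and the histone demethylase Kdm5c 1.52-fold, whereas the helicase Ddx3x fell 1.32-fold, and Kdm6a stood at 82.9 and 82.1 CPM (adjusted p = 0.765, edgeR quasi-likelihood test with Benjamini-Hochberg adjustment, as for every adjusted p of a gene here). Of 10 Y-linked genes tested 0 rose and 9 fell (median log2 fold change -1.97). The X chromosome as a whole was close to the autosomes, with 34.4% of its 529 genes higher and 30.2% lower.

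Of 16595 genes tested, 10872 (65.5%) passed an adjusted p of 0.05, 5443 of them higher (32.8%) and 5429 lower (32.7%) in 5-FU+Saline. These shares are the background for the counts of every gene group below, together with the median log2 fold change over all genes of -0.02. Genes near 0 in a group passed the filter on low counts through other libraries, so if called they could go only 1 way. Gene positions below are those of the deposited annotation on mm10. The 6 libraries fell into 2 groups that did not overlap for 67.8% of genes. Large changes were fewer: 1081 genes (6.51%) rose and 1852 (11.2%) fell by at least 2-fold. The genes lower by at least 2-fold took 12.1% of all counts in Control and 3.05% in 5-FU+Saline, and those higher by at least 2-fold 1.44% and 3.92%. In bulk RNA of this kind, fewer cells of a type and less RNA per cell cannot be told apart.

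**Figure D2:**
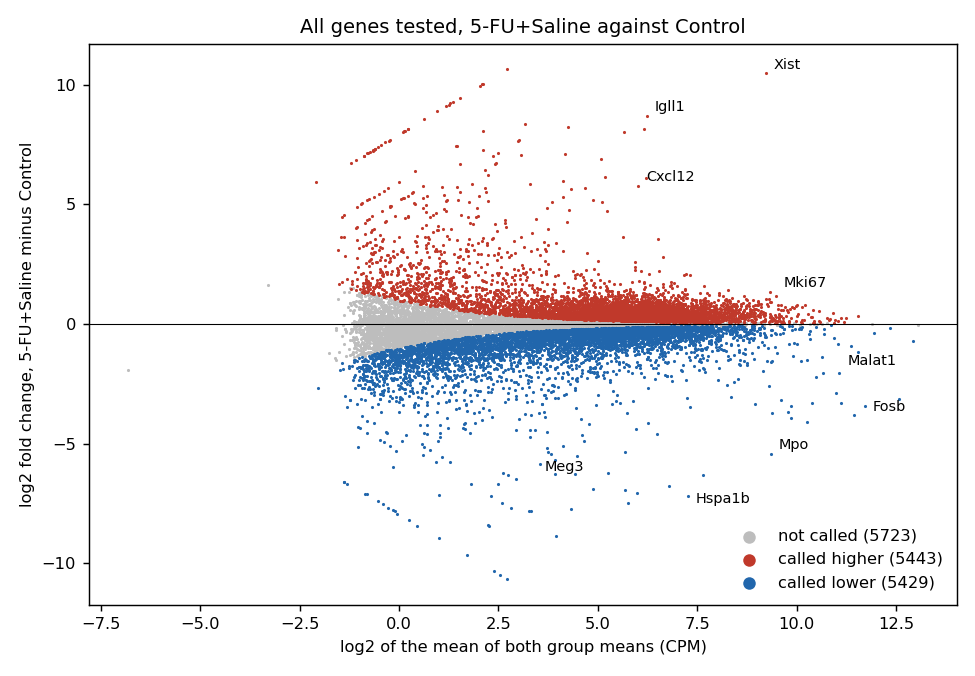
Log2 fold change of 5-FU+Saline against Control (vertical axis) for each of the 16595 genes tested, against the log2 of its mean level in CPM (horizontal axis). Red points were called higher, blue points lower and grey points not called. The straight diagonal rows at low levels are genes with 0 counts in a group, whose fitted values are no measured size.

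RNA of the genes that define the gate was checked against the label. Slamf1 (chromosome 1, 171767127 to 171801184), which encodes CD150, a marker the sort selects for, was at 9.62, 8.07 and 7.36 CPM in Control and 35.1, 36.3 and 32.3 in 5-FU+Saline. Cd48, a marker read as selected against, was at 31.8, 29.3 and 31.0 in Control and 54.3, 53.6 and 53.2 in 5-FU+Saline. Both were higher in every 5-FU+Saline library than in any Control library, and both rose (4.16-fold and 1.74-fold, adjusted p = 7.33e-30 and 5e-18). Per kilobase of transcript, Slamf1 stood at 1.36 and 5.61 CPM and Cd48 at 25.8 and 45.2, so RNA of Cd48 exceeded that of Slamf1 in both groups. Kit, the stem cell factor receptor, fell 1.84-fold to 410.5 ± 7.08 CPM, and Ly6a, the Sca1 gene, rose 1.21-fold to 118 ± 2.41.

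Genes of the enzyme that 5-FU hits and of the enzymes around it were higher after the drug. Tyms (chromosome 5, 30058202 to 30073617), thymidylate synthase itself, was at 42.1, 37.6 and 41.2 CPM in Control and 105, 94.3 and 103 in 5-FU+Saline. All 3 treated libraries lay above all Control libraries, and the rise was 2.49-fold (log2 fold change 1.31, SE 0.0557, adjusted p = 3.25e-34). Of 23 genes of thymidylate and deoxynucleotide synthesis tested, 16 rose and 2 fell, with a median log2 fold change of 0.68. The folate enzymes Shmt1, Shmt2 and Mthfd2 rose 2.40-fold, 1.67-fold and 3.29-fold. Dut, which destroys dUTP before it can enter DNA, rose from 87.0 ± 6.30 to 185 ± 13.2 CPM, and the salvage kinases Dck and Tk1 rose 2.92-fold and 1.86-fold. Rrm1 and Rrm2, the ribonucleotide reductase subunits of dividing cells, rose 2.15-fold and 3.01-fold, while Rrm2b, the subunit used by resting cells and after DNA damage, had 22.9 ± 2.33 and 22.5 ± 0.576 CPM (adjusted p = 0.902). Tk2, the mitochondrial thymidine kinase, fell 1.47-fold.

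The enzymes that make pyrimidines and turn 5-FU into nucleotides moved less evenly: 10 of 19 tested rose and 5 fell (median log2 fold change 0.20). Cad, Umps and Ctps, on the route from glutamine to CTP, rose 1.87-fold, 1.62-fold and 1.90-fold, and Umps is also the enzyme that joins 5-FU directly to ribose phosphate. The uridine kinase Uck2 rose 1.43-fold. Upp1, which joins uracil and 5-FU to ribose, was at 10.8, 10.5 and 9.22 CPM in Control and 4.10, 3.94 and 4.54 in 5-FU+Saline and fell 2.40-fold. Dpyd, which starts the breakdown of uracil and 5-FU, had 0 counts in Control and 9 in 5-FU+Saline and was below the filter on low counts.

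Repair of uracil and mismatches in DNA was represented by 17 genes, of which 14 rose and 0 fell (median log2 fold change 0.52). Ung, the glycosylase that cuts uracil out of DNA, rose from 32.0 ± 2.82 to 61.8 ± 3.08 CPM (1.95-fold), and the ligase Lig1 that seals the gap rose 1.95-fold. The mismatch nuclease Exo1 rose 2.11-fold and the mismatch sensor Msh6 rose 1.44-fold. Polb, the polymerase of base excision repair, had 25.1 and 25.1 CPM (adjusted p = 0.994).

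Cell cycle genes were higher in nearly every class, from entry into the cycle to the separation of chromosomes. Ccnd1, a cyclin that carries growth signals into the cycle, was at 25.4, 23.0 and 24.0 CPM in Control and 107, 110.0 and 118 in 5-FU+Saline and rose 4.62-fold (adjusted p = 1.09e-46). Its relatives Ccnd3 and Ccnd2 rose 2.29-fold and 1.32-fold, whereas Cdk6, a kinase partner of these cyclins, fell 1.35-fold. Of 20 cyclins, cyclin-dependent kinases and their phosphatases, 16 rose and 3 fell (median log2 fold change 0.90). Ccng2, a cyclin linked to arrest, fell 1.45-fold. Ccna2 of S phase and Ccnb1 of mitosis rose 2.79-fold and 3.25-fold, and the phosphatase Cdc25b, which releases Cdk1, rose 3.36-fold.

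The E2F factors switch on replication genes once the pocket proteins that hold them are inactivated. E2f2 and E2f7, an activator and a repressor, rose 4.84-fold and 3.50-fold and led a group in which 14 of 17 rose and 2 fell (median log2 fold change 0.72). Rbl2, the pocket protein of resting cells, fell from 104 ± 1.24 to 76.3 ± 4.27 CPM, and Rbl1, its counterpart in cycling cells, rose from 90.4 ± 2.81 to 168 ± 5.85. Mybl2 and Foxm1, which drive the genes of late cell cycle phases, rose 2.35-fold and 1.95-fold. Among inhibitors of the cyclin-dependent kinases, Cdkn1b (p27) fell 1.46-fold, Cdkn2c, Cdkn2d and Cdkn3 rose 1.29-fold, 1.44-fold and 2.32-fold, and Cdkn1c (p57), known for holding stem cells at rest, had 10.2 ± 1.58 and 11 ± 0.458 CPM (adjusted p = 0.556).

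Origins of replication are licensed by loading the MCM ring with the help of ORC, Cdc6 and Cdt1. All 6 ring subunits rose, between 1.68-fold for Mcm7 and 1.99-fold for Mcm2, which went from 189, 202 and 199 to 383, 399.96 and 390.5 CPM. Of 24 licensing and helicase genes 22 rose and 1, the origin subunit Orc5, fell by 1.16-fold (median log2 fold change 0.82). The call of Orc5 was lost without Control 1 or 3 or 5-FU+Saline 1 or 3 (adjusted p from 0.069 to 0.141). It was also lost with DESeq2 (adjusted p = 0.0743) and without the filter on low counts (0.123). The GINS subunit gene Gins2 rose most in that group, by 2.2-fold, and Gmnn, which blocks licensing after S phase, rose 1.96-fold.

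Mitosis genes rose by similar amounts. Of 28 kinetochore and spindle checkpoint genes 27 rose and 1 fell (median log2 fold change 1.10), and 12 of 12 mitotic kinesins rose (median 1.00). Plk1, a kinase of mitotic entry, was at 40.4, 35.7 and 36.6 CPM in Control and 103, 104 and 106 in 5-FU+Saline (2.78-fold), and Cdc20, which opens the way to anaphase, at 80.5, 79.4 and 75.2 in Control and 194, 198 and 199.7 in 5-FU+Saline (2.53-fold). No library of a group reached the range of the other for either gene. The kinesins Kif2c and Kif4 rose 2.53-fold and 2.42-fold, and the centromere protein gene Cenpa rose least among the risers of its group, by 1.19-fold. Zwint, a kinetochore scaffold, fell 1.08-fold, and that call was lost without Control 1 or 5-FU+Saline 1 or 2 (adjusted p from 0.0659 to 0.0837). It was also lost with DESeq2 (adjusted p = 0.0506) and without the filter on low counts (0.27).

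The replication-dependent histones did not follow the other S phase genes. Of 39 tested 3 rose and 19 fell (median log2 fold change -0.95), with Hist1h1c falling from 162 ± 7.88 to 52.9 ± 1.98 CPM and Hist1h2bg from 50.5 ± 4.38 to 12.4 ± 0.846, while Hist1h4i rose 1.36-fold. Without Control 3, 1 histone gene rose. Their mRNAs lack poly(A) tails, and most single genes had low levels in both groups. Ribosomal and small RNAs without poly(A) tails fell in the same libraries, and their part in this result was not tested.

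Promoter stretches of 3 cell cycle genes are printed here, as the 150 bases before the RefSeq start on GRCm38.p6, 5′ to 3′. Capitals mark CCAAT in Ccnb1, CCAAT and the cell cycle homology letters TTTGAA in Cdc20, and the E2F site TTTCCCGC, here as its reverse complement, in Cdc6. Cdc6 rose 1.23-fold. These 3 genes were chosen as members of the lists of cyclins, kinetochore and licensing genes that hold the letters within the stretch. The stretches are at chr13:100786487-100786636 (minus strand) for Ccnb1, chr4:118437344-118437493 (minus strand) for Cdc20 and chr11:98908001-98908150 (plus strand) for Cdc6.
Ccnb1: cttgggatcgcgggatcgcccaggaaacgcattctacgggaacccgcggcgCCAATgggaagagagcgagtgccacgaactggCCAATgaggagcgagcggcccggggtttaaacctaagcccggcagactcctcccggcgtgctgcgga
Cdc20: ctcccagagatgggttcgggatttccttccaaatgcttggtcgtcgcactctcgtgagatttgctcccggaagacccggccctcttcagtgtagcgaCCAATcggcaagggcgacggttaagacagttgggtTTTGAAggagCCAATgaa
Cdc6: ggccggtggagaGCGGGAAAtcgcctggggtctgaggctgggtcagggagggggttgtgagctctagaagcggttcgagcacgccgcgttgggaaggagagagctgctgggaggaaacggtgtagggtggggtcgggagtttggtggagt
Over 250 bases before the start, on both strands, CCAAT was in 39.9% of 11047 tested genes with a window, in 9 of 13 cyclin and kinase genes (69.2%), in 16 of 25 kinetochore genes (64%) and in 7 of 11 kinesin genes (63.6%). TTTGAA was in 13.2% of all, in 5 of 11 kinesin genes and in 3 of 25 kinetochore genes. TTTCCCGC was in 1.96% of all and in 5 of 19 licensing genes (26.3%). Such matches are a description of the letters, and CCAAT was also in 17 of 18 cholesterol synthesis genes, of which more fell than rose.

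Genes of DNA break repair mostly rose, while p53 regulators and targets moved both ways. Of 25 Fanconi anemia and homologous recombination genes 16 rose and 3 fell (median log2 fold change 0.62). Brca1 rose 2.04-fold, while Fance and Rad51d fell 1.24-fold and 1.18-fold. Of 25 p53 regulators and targets 8 rose and 11 fell, with a median of 0.00. Trp53 rose 1.22-fold and its ubiquitin ligase Mdm2, also a target, fell 1.46-fold. Cdkn1a (p21) was at 93.9, 92.6 and 93.0 CPM in Control and 89.0, 97.9 and 93.5 in 5-FU+Saline, and the groups overlapped (adjusted p = 0.936). The death effectors Bbc3 (PUMA) and Pmaip1 (NOXA) fell 2.23-fold and 2.82-fold, whereas Bax, Zmat3 and Pidd1 rose 1.40-fold, 1.85-fold and 1.47-fold.

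Among BCL2 family genes, 6 of 14 tested rose and 6 fell, and the survival genes moved in opposite directions. Mcl1, a short-lived survival protein, fell from 1024 ± 4.52 to 438 ± 10.2 CPM (2.34-fold), and Bcl2l1, which encodes BCL-XL, rose from 19.4 ± 1.80 to 55.0 ± 1.13 (2.86-fold). Mcl1 stayed above Bcl2l1 per kilobase, at 299.6 and 128 CPM against 4.24 and 12.0. The BH3-only genes Bcl2l11 (BIM) and Bmf fell 2.76-fold and 2.12-fold, and the effector genes Bak1 and Bok rose 1.91-fold and 10.5-fold, Bok from only 2.63 CPM.

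Genes of the early response, which cells transcribe within minutes of a stimulus and of tissue handling, fell strongly from high levels. Fos (chromosome 12, 85473890 to 85477273) was at 3685, 3583 and 3582 CPM in Control and 485, 490.1 and 491 in 5-FU+Saline, and it fell 7.40-fold (log2 fold change -2.89, SE 0.0244, adjusted p = 1.79e-81). Atf3, a stress factor of the same family, was at 112, 98.9 and 107 in Control and 14, 12.5 and 8.36 in 5-FU+Saline. Groups stood far apart for both genes. Of 14 AP-1 factors tested 12 fell and 2 rose (median log2 fold change -1.61), and those that rose were Batf and Batf2, AP-1 partners of immune cells, at 1.40-fold and 1.37-fold. The call of Batf2, at 3.97 and 5.38 CPM, was lost without Control 1 or 3 and without each of the 5-FU+Saline libraries (adjusted p from 0.0522 to 0.272). It was also lost with upper-quartile scaling (adjusted p = 0.0957) and with DESeq2 (0.0696).

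Of 13 EGR, NR4A and IER genes 9 fell and 0 rose (median log2 fold change -1.52), from Ier2 (901 ± 8.31 to 233 ± 6.98 CPM) to Nr4a3 (5.19-fold). Srf, which drives many of these genes, had 94.3 ± 3.31 and 94.9 ± 0.587 CPM (adjusted p = 0.844). Klf2 and Klf4, Kruppel-like factors tied to rest in blood and endothelial cells, fell from 899.8 ± 12.4 to 88.9 ± 2.72 and from 273 ± 0.765 to 32.1 ± 1.51 CPM, in a family of which 12 of 14 fell and 1, Klf16, rose (1.24-fold).

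Brakes on signalling were among the lower genes as well. Dusp1, a phosphatase that switches off stress kinases, was at 1115, 1067 and 1090.2 CPM in Control and 185, 185 and 178 in 5-FU+Saline (5.98-fold). Of 14 phosphatases of its family 9 fell and 3 rose, and those that rose were Dusp3, Dusp4 and Dusp7 (1.83-fold, 2.19-fold and 2.11-fold), the latter pair acting on ERK. All 8 genes of the ZFP36, BTG and TOB families fell, including the anti-proliferative Btg2 (5.85-fold) and Tob1 (2.30-fold). Zfp36l2, at 1898 and 1833 CPM, fell by only 1.04-fold (adjusted p = 0.0332), a call lost without each Control library and without 5-FU+Saline 1 or 2 (adjusted p from 0.0504 to 0.223). Some other scalings (adjusted p of 0.0902 and 0.0952), no filter (0.874) and the 6 libraries alone (0.0543) also lost that call. Rgs1 and Rgs2, which shorten G-protein signals, fell 5.38-fold and 4.05-fold, in a group of 9 with 5 lower and 1 higher.

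Heat shock genes moved both ways. Hspa1b (chromosome 17, 34956436 to 34959238), an HSP70 made only under stress, was at 301, 308 and 303 CPM in Control and 2.05, 1.72 and 2.38 in 5-FU+Saline. Dnajb1, its HSP40 partner, was at 289, 294 and 280.5 in Control and 100.01, 93.8 and 98.6 in 5-FU+Saline, and Hspb1, a small heat shock protein, at 6.04, 5.04 and 6.45 in Control and 0.397, 0.255 and 0.310 in 5-FU+Saline. These genes fell 146-fold, 2.95-fold and 18-fold, and every treated library lay under every Control library. Other chaperones of the list rose: the HSP90 genes Hsp90ab1 and Hsp90aa1 rose 1.27-fold and 1.26-fold, the mitochondrial chaperone Hspd1 1.42-fold and the HSP70 to HSP90 adaptor Stip1 1.75-fold. Hsph1, Dnaja1 and Dnajb4 fell 1.61-fold, 1.46-fold and 2.46-fold. Over the whole list 12 of 25 rose, 9 fell and 4 were not called, with a median log2 fold change of 0.02. Hsf1, the factor that switches on the stress-made genes, fell 1.11-fold (adjusted p = 0.00496, but 0.0901 without the filter on low counts).

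Promoters of Hspa1a, Hspa1b and Hspb1, 3 of the 9 heat shock genes that fell, are printed here. Capitals mark the letters GAANNTTC, an inverted pair of the units that HSF1 binds. Promoters of the other genes that fell are not shown. Hspa1a fell from 126 ± 0.967 to 0.959 ± 0.0873 CPM. The stretches are the 150 bases before the RefSeq start on GRCm38.p6, at chr17:34972157-34972306 (minus strand) for Hspa1a, chr17:34959239-34959388 (minus strand) for Hspa1b and chr5:135887769-135887918 (plus strand) for Hspb1.
Hspa1a: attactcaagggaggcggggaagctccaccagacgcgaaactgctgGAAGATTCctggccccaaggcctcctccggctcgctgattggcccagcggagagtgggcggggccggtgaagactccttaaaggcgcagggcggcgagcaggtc
Hspa1b: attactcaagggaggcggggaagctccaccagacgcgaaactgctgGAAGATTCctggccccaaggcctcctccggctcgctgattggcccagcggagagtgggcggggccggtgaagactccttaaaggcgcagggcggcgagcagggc
Hspb1: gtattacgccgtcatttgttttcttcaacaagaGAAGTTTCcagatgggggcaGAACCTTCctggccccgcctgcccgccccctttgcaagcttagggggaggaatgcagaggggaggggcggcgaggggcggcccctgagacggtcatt
The match began at -104 in Hspa1a and Hspa1b and at -117 and -97 in Hspb1, counted from the last base before the start as -1. The Hspa1a and Hspa1b stretches were equal at 149 of 150 bases, and since their transcripts are also near-identical, the split of reads between these genes is uncertain. GAANNTTC was within 250 bases in 7 of 20 heat shock genes (35%) and in 6.07% of all tested genes. Over all 25 genes of that list 12 rose and 9 fell, and matches were not counted apart by direction. Dusp1 is shown beside them for a full cyclic AMP response element, TGACGTCA in capitals, at chr17:26508473-26508622 (minus strand), where the match began at -143.
Dusp1: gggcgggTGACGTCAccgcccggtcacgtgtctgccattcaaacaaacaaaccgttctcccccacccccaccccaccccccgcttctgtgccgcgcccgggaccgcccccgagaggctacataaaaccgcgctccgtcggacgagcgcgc
These letters were in 2.96% of all tested genes and in 2 of 13 genes of the phosphatase family.

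The unfolded protein response adjusts the folding capacity of the endoplasmic reticulum. Of its 24 genes 4 rose, 13 fell and 7 were not called (median log2 fold change -0.15). Ddit3 (CHOP) and Ppp1r15a (GADD34), which act late in that response, fell 2.86-fold and 2.34-fold, Dnajb9 fell 2.82-fold and the sensor Ern1 (IRE1) fell 1.83-fold. The chaperones Canx and Pdia3 rose 1.39-fold and 1.30-fold. Amino acid transporters went both ways, with Slc7a5 at 74.9, 75.6 and 81.0 CPM in Control and 188, 172 and 181 in 5-FU+Saline (2.33-fold) and Slc1a5 1.57-fold higher, among 8 of 18 that rose and 7 that fell (7 and 8 with upper-quartile scaling). Slc38a5, a glutamine transporter that erythroid cells use, had 593 counts in Control and 3 in 5-FU+Saline.

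NF-kB and interferon-stimulated genes fell more often than they rose, and chemokine and cytokine genes went both ways. Of 16 NF-kB subunits and feedback inhibitors 3 rose and 11 fell (median log2 fold change -0.48). The feedback inhibitors Tnfaip3 (A20) and Nfkbia fell 2.12-fold and 1.57-fold, and the subunits Rela and Rel fell 1.74-fold and 1.74-fold. Of 23 chemokine and inflammatory cytokine genes tested 7 rose, 10 fell and 6 were not called (median -0.34), and with a stricter filter, a mean of at least 5 CPM over the 9 libraries, 2 rose and 9 fell. Those that rose include Cxcl12 and Kitl, both also listed for stroma, and Cxcl14, which had 0 counts in Control and was at least 70.6-fold higher, a bound taken from 3 counts over the group's libraries. Ccl4, a chemokine of activated myeloid cells, was at 100.01, 100.04 and 101 CPM in Control and 1.85, 2.99 and 2.48 in 5-FU+Saline, with no overlap. Ccl9 and Il15 fell 7.51-fold and 3.42-fold. The summed level of the list ran from 504 to 511 CPM in Control and from 327 to 335 in 5-FU+Saline. Of 28 interferon-stimulated genes 15 fell and 7 rose (median -0.34), with Ifitm1 1.72-fold lower and Ifit2 1.81-fold and Bst2 1.40-fold higher.

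**Figure D3:**
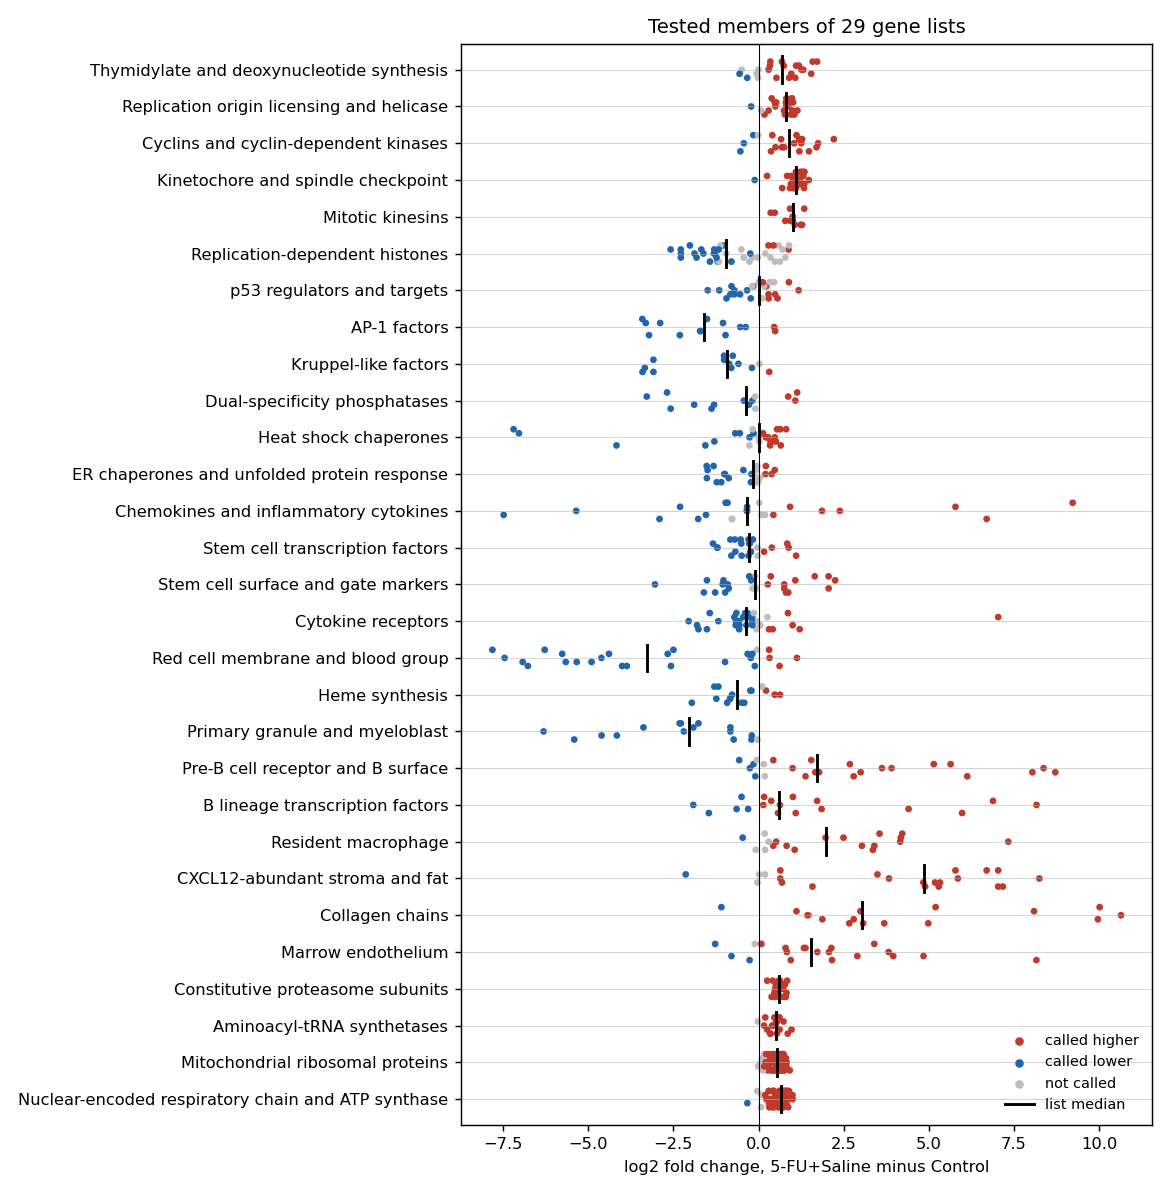
Log2 fold change of every tested member (points) of 29 gene lists, red for called higher, blue for called lower and grey for not called, with the list median as a black bar. Licensing, cyclin, kinetochore and kinesin lists lie mostly to the right. Replication-dependent histones, AP-1 factors, red cell and granule lists lie mostly to the left. B lineage, macrophage, collagen and stromal lists reach far to the right. Points beyond about 7 on either side include genes with 3 counts or fewer in a group.

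Stem cell regulators were lower more often than higher. Hlf, a factor restricted to stem and early progenitor cells, was at 560.2, 562 and 573 CPM in Control and 244, 239 and 245 in 5-FU+Saline (2.33-fold). Mecom, another gene of long-term stem cells, was at 117, 117 and 118 in Control and 156, 148 and 157 in 5-FU+Saline and rose 1.31-fold. Those 2 regulators thus moved apart with no overlap between groups. Of 25 stem cell transcription factors 5 rose and 18 fell (median log2 fold change -0.27). Lmo2, Meis1 and Runx1 fell 1.74-fold, 1.42-fold and 1.41-fold, and Zbtb16 and Nkx2-3 fell 2.53-fold and 2.31-fold. The other risers were Lyl1 (1.12-fold), Tcf15 (1.84-fold), Mycn (2.15-fold) and Hmga2 (1.79-fold), the last known from fetal stem cells. Erg stood at 253 and 248 CPM (adjusted p = 0.44) and Fli1 at 82.2 and 80.3 (adjusted p = 0.632). Of 16 Hoxa and Hoxb genes tested 3 rose and 8 fell, among them Hoxa9 (1.84-fold) and Hoxa5 (1.77-fold), and the 3 that rose, Hoxb7, Hoxb8 and Hoxb9, stayed under 3 CPM. Without Control 3, 5 Hox genes rose.

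Surface genes divided evenly, 11 of 25 higher and 11 lower. Flt3, a receptor of multipotent and lymphoid progenitors, was at 574, 591 and 588 CPM in Control and 68.1, 71.7 and 72.8 in 5-FU+Saline (8.23-fold), and Cd34 and Cd27 fell 2.04-fold and 2.08-fold. Thy1 and Cd38 rose 4.75-fold and 4.16-fold, the latter from 2.89 CPM. Vwf and Selp, genes of platelet-biased stem cells, platelets and vessel walls, rose 3.14-fold and 6.11-fold, with Selp at 16.9, 16.6 and 18.2 CPM in Control and 102, 111 and 104 in 5-FU+Saline. Tek (TIE2) and Esam rose 1.69-fold and 1.83-fold, and Procr (EPCR) fell 1.21-fold.

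Receptors for blood cytokines were lower in most cases, 22 of 33 against 6 higher (median log2 fold change -0.36). Csf3r fell 3.40-fold, Csf1r 3.50-fold and Il6ra 2.70-fold. Il7r, the receptor of early lymphoid cells, rose from 19.4 ± 2.48 to 38.2 ± 1.42 CPM and Ifngr2 rose 2.31-fold. Downstream, of 22 STAT and SOCS genes 4 rose, 12 fell and 6 were not called (median -0.26). Socs2, a feedback inhibitor of STAT5, was at 19.7, 18.6 and 19.9 CPM in Control and 103, 106 and 102 in 5-FU+Saline (5.31-fold). Cish rose 1.77-fold and Socs3 fell 1.80-fold.

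TGF-beta is known to hold stem cells in quiescence, and its pathway genes moved both ways. Of 26 genes 8 rose, 12 fell and 6 were not called (median log2 fold change -0.06). Tgfb1, a ligand, was at 155, 149 and 172 CPM in Control and 364, 373 and 373 in 5-FU+Saline, and the coreceptor Tgfbr3 at 54.4, 49.8 and 52.0 in Control and 184, 176 and 175 in 5-FU+Saline. Both rose (2.32-fold and 3.42-fold), whereas Smad7 and Skil, inhibitors that the pathway itself induces, fell 4.53-fold and 3.23-fold. The receptor Tgfbr2 fell 1.40-fold and Tgfbr1 rose 1.23-fold. Id3, a target of BMP signals, rose from 3.98 ± 0.538 to 14.4 ± 0.214 CPM.

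Imprinted genes were mostly lower, and noncoding RNAs of the Dlk1 locus were nearly lost. Meg3 (chromosome 12, 109541001 to 109571726), expressed from the maternal chromosome of the Dlk1 locus and abundant in long-term stem cells, was at 75.2, 79.6 and 73.4 CPM in Control and 1.19, 0.764 and 1.03 in 5-FU+Saline. It fell 75.6-fold (adjusted p = 1.48e-54), and its neighbours Rian and Dlk1 fell 26.1-fold and 5.58-fold. Grb10, an adaptor that restrains growth signals, rose from 56.2 ± 2.81 to 170.3 ± 6.16 CPM. Of 19 imprinted genes tested 3 rose and 10 fell (median log2 fold change -0.77), and H19 had 2.02 and 1.99 CPM.

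Regulators of DNA methylation and Polycomb moved both ways. Uhrf1, Dnmt1 and Ezh2, used when chromatin is copied, rose 2.67-fold, 1.91-fold and 1.90-fold, and Ezh1, its counterpart in resting cells, fell 1.89-fold. Tet1 and Tet2, which oxidise methylcytosine, fell 1.52-fold and 2.18-fold, and the Polycomb gene Cbx7 fell 2.33-fold. Over the list of 24 there were 9 higher and 10 lower, with Bmi1 at 78.7 and 76.2 CPM.

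**Figure D4:**
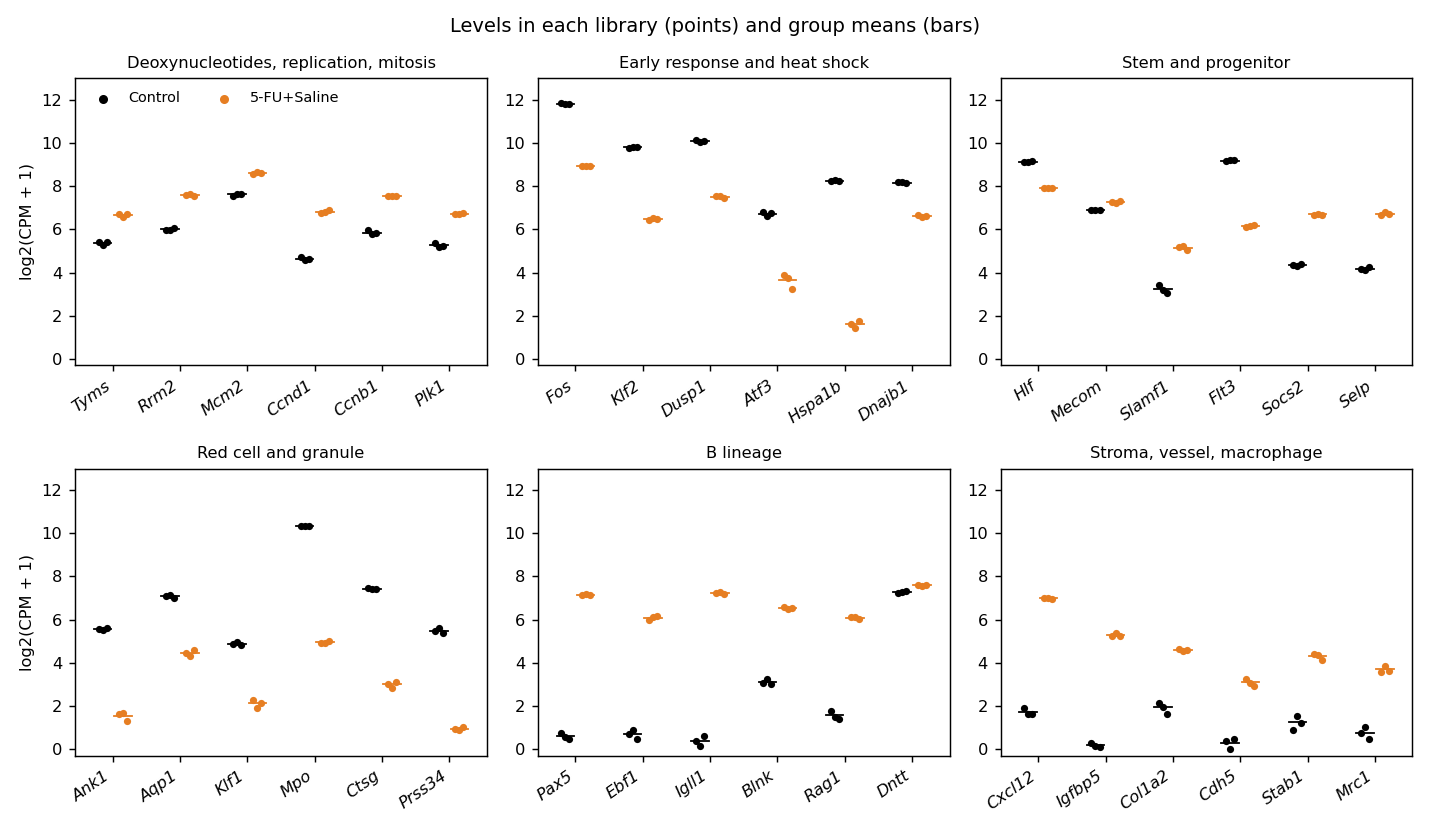
Level of 36 genes as log2(CPM + 1) in each library (points) with the group mean (bars), Control in black and 5-FU+Saline in orange, in 6 panels by role. In each gene drawn the 3 points of a group lie close together compared with the distance between the groups. The replication, B lineage and stromal genes drawn are higher in 5-FU+Saline and the early response, heat shock, red cell and granule genes are lower.

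Red cell genes fell far. Ank1 and Sptb, an ankyrin and a spectrin of the membrane skeleton, fell 24.5-fold and 29.9-fold, with Ank1 at 45.8, 45.2 and 48.5 CPM in Control and 2.12, 2.23 and 1.45 in 5-FU+Saline. The blood group gene Rhd was at 25.6, 29.5 and 24.0 CPM in Control and 1.39, 0.445 and 0.207 in 5-FU+Saline (40.5-fold). Kel, another blood group gene, was at 29.8, 26.7 and 33.0 in Control and 0.132, 0.573 and 0.413 in 5-FU+Saline (77.7-fold). Both were near 0 in every treated library. Of 26 membrane and blood group genes 21 fell and 4 rose (median log2 fold change -3.27). Those that rose were Tmod1, Xk, Cd59a and Bsg, at 2.18-fold, 1.53-fold, 1.25-fold and 1.24-fold. The call of Cd59a was lost without Control 2 or 3 or 5-FU+Saline 1 or 3 (adjusted p from 0.0768 to 0.102). It was also lost with upper-quartile scaling (adjusted p = 0.115), DESeq2 (0.0509) and the stricter filter (0.074). Aqp1, a water channel of red cells and vessels, fell from 134 ± 6.90 to 20.8 ± 2.39 CPM.

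Of 15 globin and erythroid regulator genes tested 12 fell, 2 rose and 1 was not called, with a median log2 fold change of -0.33. Klf1, the erythroid Kruppel-like factor, fell 8.50-fold to 3.34 ± 0.558 CPM and Sox6 4.30-fold, but Gata1 stood at 21.3, 27 and 24.6 in Control and 21.9, 21.4 and 23.5 in 5-FU+Saline (adjusted p = 0.263). Zfpm1, the partner of Gata1, rose 1.29-fold, and Epor fell 1.28-fold. Of 16 heme synthesis genes 12 fell and 3 rose (median log2 fold change -0.64), including Alas1, Cpox and Ppox (2.46-fold, 1.78-fold and 2.27-fold lower). Globin RNA was low in both groups, with Hba-a1 at 21.1 and 1.63 CPM, and single globin genes are uncertain because their copies are near-identical. Hmox1, which breaks heme down, rose from 3.84 ± 0.331 to 18.9 ± 1.98 CPM, and Blvrb of the same route fell 4.05-fold.

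The promoters of Rhd and Kel are printed with the GATA letters AGATAA in capitals, at chr4:134864386-134864535 (plus strand) and chr6:41704326-41704475 (minus strand), again the 150 bases before the start.
Rhd: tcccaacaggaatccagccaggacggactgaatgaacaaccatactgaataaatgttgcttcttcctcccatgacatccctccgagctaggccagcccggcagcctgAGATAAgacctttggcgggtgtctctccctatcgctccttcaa
Kel: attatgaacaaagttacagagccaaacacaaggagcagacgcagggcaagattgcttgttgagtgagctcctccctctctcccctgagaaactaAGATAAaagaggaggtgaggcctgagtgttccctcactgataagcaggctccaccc
The matches began at -43 and -56. AGATAA on either strand was within 250 bases in 4 of 16 red cell membrane genes (25%) and in 7.46% of all tested genes. It was also in 5 of 14 genes of globins and erythroid regulators (35.7%) and 7 of 20 of mast cells, basophils and eosinophils (35%). Late neutrophil genes, of which more rose than fell, held it in 4 of 12 cases (33.3%). The KLF1 letters CCACACCC were in 1 of 16 red cell membrane genes (6.25%) and in 4.23% of all.

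Granule genes of early myeloid cells were lower without exception in those called: 15 of 16 fell (median log2 fold change -2.06), and Ctsc had 76.4 and 74.9 CPM (adjusted p = 0.572). Ctsg and Prtn3, serine proteases of the granules, fell 24.4-fold and 4.99-fold, Ctsg from 176, 168 and 169 to 7.14, 6.11 and 7.64 CPM. Their regulators Cebpa and Cebpe fell 4.58-fold and 10.4-fold. Genes of late neutrophils went the other way at low levels: 10 of 15 tested rose and 4 fell, with Mmp9 at 0.269 ± 0.178 and 6.36 ± 1.11 and S100a9 at 2.84 ± 0.616 and 9.13 ± 1.26 CPM. With the stricter filter 2 of these late genes rose and 3 fell. S100a8, the partner of S100a9, was at 5.34 and 6.06 CPM (adjusted p = 0.376).

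Genes of mast cells, basophils and eosinophils fell in 17 of 23 cases and rose in 4 (median log2 fold change -1.47). Hdc, the histamine enzyme, fell 10.1-fold and Prg2, a granule protein, 4.08-fold, and the eosinophil peroxidase gene Epx had 418 counts in Control and 1 in 5-FU+Saline. The mast cell proteases Cma1 and Mcpt4 rose 2.27-fold and 5.84-fold, to 4.37 and 3.50 CPM. Monocyte genes showed 4 higher and 7 lower of 16, with Ly6c2 and F13a1 lower (9.87-fold and 6.79-fold) and Ccr2 and Fn1 higher (1.95-fold and 4.12-fold).

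Platelet genes were mixed, 6 of 23 tested higher and 11 lower. Plek, a platelet and leukocyte signalling protein, fell from 293 ± 6.33 to 26.8 ± 0.354 CPM (10.9-fold), Itgb3 fell 1.97-fold and Ppbp 4.98-fold. The thrombin receptor F2r rose 2.66-fold, and Gp9, a von Willebrand factor receptor subunit, had 8.69 and 9.48 CPM (adjusted p = 0.41).

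B lineage genes of early stages were clear in the treated libraries, from factors that commit cells to the lineage to the pre-B cell receptor. Ebf1, which opens the B program, was at 0.597, 0.825 and 0.373 CPM in Control and 62.3, 68 and 69.8 in 5-FU+Saline. Igll1 (chromosome 16, 16860671 to 16863985), the surrogate light chain, was at 0.298, 0.0917 and 0.533 in Control and 151, 153 and 144 in 5-FU+Saline. Control libraries held almost none of these RNAs and every treated library held them at clear levels. Of 24 pre-B receptor and B surface genes 17 rose and 4 fell (median log2 fold change 1.72), and of 18 B lineage transcription factors 13 rose and 5 fell (median 0.60). Cd79a, Cd79b and Blnk, which carry the receptor's signal, rose 6.92-fold, 3.17-fold and 12.3-fold, and Lef1 and Spib rose 63.0-fold and 21.2-fold. The summed level of the surface list ran from 1588 to 1599.8 CPM in Control and from 2275 to 2317 in 5-FU+Saline. That of the transcription factor list was lower after treatment, from 2390 to 2423 CPM in Control and from 2194 to 2249 in 5-FU+Saline. Genes of mature B cells stayed low, with Ms4a1 (CD20) at 1.46 ± 0.170 and 9.53 ± 1.34 CPM and Cr2 at 1.80 ± 1.22 and 1.90 ± 0.450. Sox4 and Bcl6 fell 2.75-fold and 3.78-fold. Part of the surface list is also expressed in stem and myeloid cells, such as Cd24a and Cd93, which fell 1.11-fold and 1.19-fold.

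The recombinase genes Rag1 and Rag2, which cut antigen receptor loci, rose 34.4-fold and 11-fold, with Rag1 at 2.39, 1.83 and 1.65 CPM in Control and 68.8, 67.8 and 63.4 in 5-FU+Saline. Dntt, which adds bases at the joints and is also on in lymphoid-primed progenitors, was already at 148, 156 and 159.7 CPM in Control and rose 1.24-fold to 193, 187 and 195. Among 15 genes of recombination and end joining 10 rose and 2, Dclre1c and Trp53bp1, fell (1.34-fold and 1.29-fold). The ligase Lig4 rose 3.59-fold.

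Genes of antibody-secreting cells were lower in the same libraries. Of 16 plasma cell genes 4 rose and 9 fell (median log2 fold change -0.28), with Sdc1 (CD138) and Derl3 falling 2.08-fold and 2.31-fold, and of 11 immunoglobulin constant regions 2 rose and 8 fell. Without Control 3, 2 plasma cell genes rose. Igkc, the kappa light chain, fell 1.31-fold from 4468 ± 62.1 CPM. Iglc2, a lambda light chain, was at 1780.5, 1694 and 1758 CPM in Control and 119, 116 and 109 in 5-FU+Saline and fell 15.3-fold, far more than the kappa chain, while Iglc1 had 209.7 and 209 CPM (adjusted p = 0.947). Iglc2 and Iglc3 are near-identical, so their split is uncertain. Of 95 heavy chain V segments tested 37 were higher and 45 lower, and of 88 kappa V segments 30 and 49.

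Most genes listed for the stroma of the marrow niche were higher in 5-FU+Saline, several of them from near 0 in Control. Cxcl12 (chromosome 6, 117168535 to 117181367), the chemokine that keeps stem cells in the marrow, was at 2.76, 2.11 and 2.08 CPM in Control and 129, 128 and 124 in 5-FU+Saline, and Igfbp5, an insulin-like growth factor binding protein of the same stroma, at 0.224, 0.0917 and 0.0533 in Control and 36.4, 40.3 and 36.4 in 5-FU+Saline. Lpl, a lipase of fat cells, was at 2.01, 1.47 and 1.33 in Control and 55.5, 57.9 and 59.4 in 5-FU+Saline. No Control library came near a treated one for these genes. Of 22 genes of CXCL12-abundant stroma and fat 18 rose and 1, Pdgfrb, fell (4.40-fold), with a median log2 fold change of 4.86, or 4.38 with the genes of 3 counts or fewer at their bound. With the stricter filter, which leaves out members of low level but also takes in the treated libraries, 8 rose and 2 fell. Members near 0 in Control passed either filter through treated libraries, so if called they could only be higher. The same holds for collagen, endothelial, macrophage, late neutrophil and early B lineage genes near 0 in Control. Counts of the leptin receptor gene Lepr in 5-FU+Saline exceeded those in Control by a ratio of 146 (95% counting interval 49.5 to 708) and those of Kitl, the stem cell factor gene, by 123 (33.6 to 1018). These intervals and the bounds taken from 3 counts cover counting error only. Plin1, a fat droplet gene, had 0 counts in Control and was at least 15.2-fold higher. The summed level of the list ran from 679 to 691 CPM in Control and from 1101 to 1117 in 5-FU+Saline. Most of the Control sum was Angpt1, Igfbp4 and Pdgfrb. Igfbp4 was at 225 CPM in Control and rose 1.61-fold. Angpt1, listed for stroma but also made by stem cells, had 336 and 329 CPM (adjusted p = 0.338).

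Of 16 collagen genes 14 rose and 1, Col5a1, fell (2.13-fold), with a median log2 fold change of 3.03, also with genes at their bound (with the stricter filter 5 rose and 1 fell). Col6a1, Col6a3 and Col3a1 had 0 counts in Control and were at least 189-fold, 122-fold and 117-fold higher. Col1a2 was at 3.43, 2.84 and 2.13 CPM in Control and 23.7, 22.3 and 23.0 in 5-FU+Saline, and the basement membrane chains Col4a1 and Col4a2, already at 78.5 and 95.9 CPM in Control, rose 2.71-fold and 2.16-fold. The summed collagen level ran from 192 to 199 CPM in Control and from 546 to 557 in 5-FU+Saline. Of 20 marrow endothelial genes tested 16 rose and 3 fell (median 1.55), and with the stricter filter 7 rose and 3 fell. Their summed level ran from 636 to 661 CPM in Control and from 690.2 to 706 in 5-FU+Saline, most of it Eng and Tie1. Cdh5, the cadherin of vessel walls, was at 0.298, 0 and 0.373 CPM in Control and 8.53, 7.38 and 6.66 in 5-FU+Saline, and Stab1, Flt4 and Plvap of sinusoids rose 14.1-fold, 4.40-fold and 4.19-fold, while Eng, Ephb4 and Robo4 fell 1.20-fold, 1.74-fold and 2.42-fold. Few bone-forming genes passed the filter, 6 of 13, of which 2 rose and 2 fell (1 and 1 with the stricter filter, 2 and 1 without Control 3), with Alpl at 1.53 ± 0.458 and 25.1 ± 1.77 CPM and Bglap at 1 and 12 counts.

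Resident macrophage genes rose in 14 of 19 cases and fell in 1, Cd68 (1.38-fold), with a median log2 fold change of 1.97 (with the stricter filter 5 rose and 1 fell). Mrc1, the mannose receptor, was at 0.671, 1.01 and 0.373 CPM in Control and 10.8, 13.6 and 11.4 in 5-FU+Saline, and the complement genes C1qa, C1qb and C1qc rose 18.1-fold, 11.7-fold and 10.2-fold to between 6.03 and 6.89 CPM. The summed level of the list ran from 208 to 214 CPM in Control and from 371 to 379 in 5-FU+Saline, most of it Apoe, which stem cells also express. Vcam1, found on macrophages and stroma, rose 5.63-fold. The defining genes Adgre1 (F4/80) and Timd4 stayed low, Adgre1 at 0.604 and 1.27 CPM and Timd4 at 0 and 11 counts. Of 21 T, NK and innate lymphoid genes 10 rose and 4 fell (1 and 3 with the stricter filter), while the summed level of the list was lower, from 346 to 364 CPM in Control and from 221 to 231 in 5-FU+Saline. Most of that sum was Notch1, Nkg7 and Rora, which fell 1.93-fold, 1.77-fold and 1.97-fold, whereas Cd3e, of the T cell receptor complex, was at 0.428 ± 0.148 and 2.47 ± 0.764 CPM (5.81-fold). Most stromal, endothelial, macrophage and early B lineage genes were higher in the same libraries as the cell cycle and other genes described above, and their part in those results was not tested.

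Genes of the proteasome, mitochondrial ribosomes, aminoacyl-tRNA synthetases and the nuclear-encoded part of respiration rose by small and even amounts. All 25 constitutive proteasome subunits rose, between 1.19-fold for Psmc6 and 1.79-fold for Psmc1 (median log2 fold change 0.60). Of 77 mitochondrial ribosomal proteins 72 rose and 0 fell (median 0.54), and of 77 nuclear-encoded subunits of the respiratory chain and ATP synthase 73 rose and 1 fell, or 0 without Control 3 (median 0.66). Mitochondrially encoded mRNAs were nearly level, with 6 of 12 tested higher and 1 lower (median 0.06). Of 20 aminoacyl-tRNA synthetases 19 rose (median 0.51), led by Gars (1.96-fold) and Aars (1.81-fold), and Qars was at 142 and 141 CPM. Cytosolic ribosomal proteins were nearly level, 41 of 78 higher and 12 lower with a median of 0.07, and with upper-quartile scaling, which lowers the median of all genes to -0.10, 27 were higher and 26 lower. Ncl and Npm1, proteins of the nucleolus, rose 1.49-fold and 1.62-fold, while Myc fell 1.30-fold.

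Glycolysis genes rose in 15 of 24 cases and fell in 8 (median log2 fold change 0.30). Eno1, Pkm and Slc16a1, on the way from glucose to exported lactate, rose 1.78-fold, 1.66-fold and 1.99-fold, while the isoforms Hk3, Aldoc and Eno2 fell 2.55-fold, 3.04-fold and 2.38-fold and Pdk2, which holds pyruvate back from mitochondria, fell 2.02-fold. Cholesterol genes were lower in 12 of 24 and higher in 3, with Insig1, which holds the sterol-sensing machinery in the endoplasmic reticulum, at 104, 111 and 116 CPM in Control and 43.6, 42.0 and 42.4 in 5-FU+Saline (2.59-fold). Srebf2, the transcription factor of the pathway, fell 1.23-fold, while its escort Scap rose 1.39-fold. Of 23 antioxidant and ferroptosis defence genes 12 rose, 6 fell and 5 were not called (median 0.09). Among peroxide-removing genes, Prdx1, Prdx4 and Txn1 rose 2.02-fold, 2.24-fold and 1.97-fold, and Nfe2l2, which controls many antioxidant genes, fell 1.28-fold.

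Noncoding RNA genes fell more often than they rose. Of 13201 protein-coding genes tested 5030 rose and 4260 fell (median log2 fold change 0.04), whereas of 659 antisense genes 21 rose and 290 fell (median -0.65), of 385 lincRNAs 53 rose and 134 fell (median -0.31), and of 71 sense-intronic genes 1 rose and 31 fell (median -0.73). Small nuclear RNA genes showed 0 higher and 17 lower of 35. Malat1, a nuclear long noncoding RNA, was at 3341, 3470.5 and 3568 CPM in Control and 863, 840.2 and 845 in 5-FU+Saline and fell 4.07-fold. Protein-coding genes took 92.6% of counts in Control and 95.9% in 5-FU+Saline, and long noncoding RNAs 1.63% and 1.22%. The counting did not use strand, so reads of an antisense gene and its partner cannot be told apart, and ribosomal and small RNAs fell in the same libraries, whose part in these classes was not tested.

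**Figure D5:**
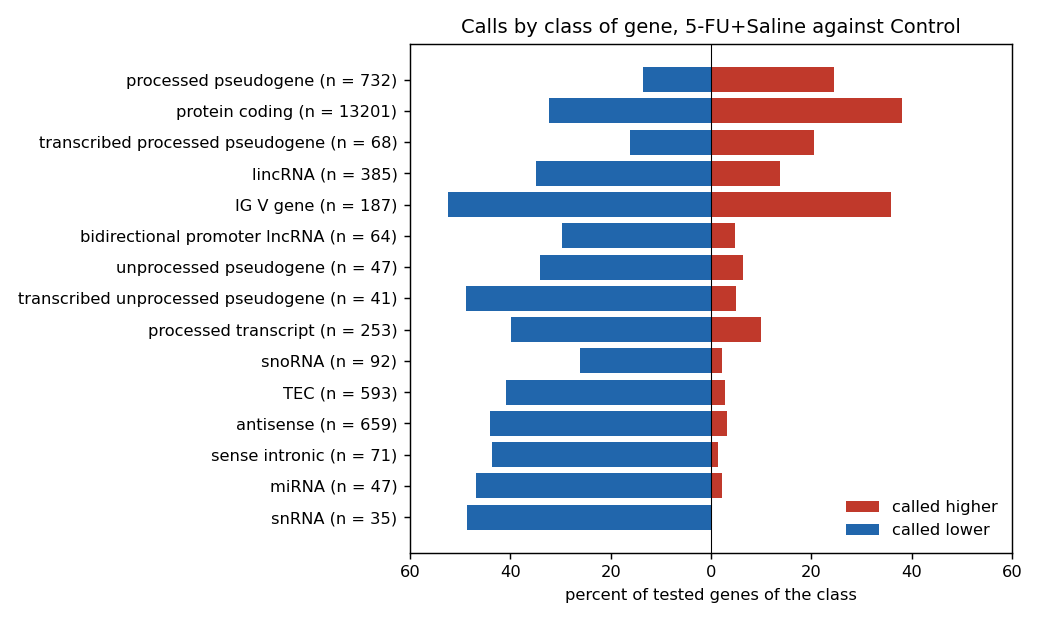
Share of the tested genes of each annotated class that was called higher (red, to the right) or lower (blue, to the left) in 5-FU+Saline, with the number tested in brackets, for classes of 30 genes or more, ordered by median log2 fold change. Protein-coding genes and processed pseudogenes were called higher more often than lower, and antisense, sense-intronic, TEC (to be experimentally checked), miRNA and snRNA genes were called lower far more often than higher.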

How the data were processed

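RNA of sorted mouse marrow cells was sequenced in paired reads of 150 bases. Per the file headers, the authors' deposited counts are whole read pairs per gene over exons, made with featureCounts 2.0.1 on GENCODE M25 gene models, unstranded and with no normalization. Per the submitters' processing notes, Trim Galore 0.6.5, HISAT2 2.2.1 and SAMtools were used with mm10. Counts of all 9 libraries entered edgeR 4.0.16 (quasi-likelihood test, TMM scaling, R 4.3.3), on 16595 of 56262 genes that passed filterByExpr. The contrast was 5-FU+Saline minus Control, calls had a Benjamini-Hochberg adjusted p under 0.05, and CPM are counts scaled to TMM-adjusted totals of 1000000. Fold changes carry edgeR's prior count. Genes with 3 or fewer counts in a group are given as counts, ratios or bounds. Symbols were matched for 55141 genes. Promoters came from RefSeq on GRCm38.p6, for 11047 tested genes, and 11 motifs were searched on both strands. The code of the fit was run on simulated counts with few changed genes. That run does not check the scaling or the error rates in these libraries. The members, gene lists and genes named were chosen with earlier results of these data known. A gene could be named if it was in a list, was among the 25 with the largest fold per direction at 10 CPM or more with no overlap, or was among the 15 with the largest difference in CPM. Others are marked as chosen later. The 18 alternatives were other scalings, DESeq2 1.42.0, limma-voom 3.58.1, other filters, 6 libraries alone, a replicate block and leaving out each library.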

Additional observations from a re-analysis of the deposited data

How the results depend on the processing

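Over 18 alternatives the number of genes called higher ran from 4224 to 5906 and lower from 4270 to 6210, against 5443 and 5429. The stricter filter gave 4224 and 4270 of 11338 genes tested, no filter 5906 and 5166 of 31420, upper-quartile scaling 4661 and 6210 with a median log2 fold change over all genes of -0.10, DESeq2 5288 and 5079, and limma-voom 5441 and 5484. Leaving out each library in turn gave 5174 to 5534 higher and 5124 to 5533 lower. Libraries with the same number in both groups did not deviate together (correlations of -0.0006, -0.0013 and 0.0081 over 11341 genes), and the fit with a replicate block called 5434 higher and 5413 lower. Of 338 genes named and tested, none changed direction under an alternative that called it, and 13 gained or lost a call under at least 1. Beside those given with the results, Adgre1, Angpt1, Bmi1, Erg, Iglc1, Qars and Tie1 did so, and the cause was not tested. Of 2556 counts of list members, 53 moved by over 1.5 times or to or from 0. Genes with few counts, such as bone-forming and late neutrophil genes, limit what can be said of those cells at this depth.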

Other observations

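Genes that passed from under 1 CPM in Control to at least 10 CPM in 5-FU+Saline numbered 28, of which 26 code for proteins, and 32 went the other way, of which 24 code for proteins and 4 are immunoglobulin segments. Several lie outside the gene lists of the report and were chosen after their values were seen. Gfra1 and Gfra2, receptors of the glial cell line-derived growth factor family, were at 0.746, 0.458 and 1.23 and at 0, 0.183 and 0.480 CPM in Control. In 5-FU+Saline they were at 26.4, 24.1 and 26.2 and at 37.0, 35.6 and 35.9, so both were clear in every treated library and near absent in every Control library. Etv4, an ETS factor, rose from 0.786 ± 0.428 to 27.8 ± 1.05 CPM (SD, n = 3), Scn4b, a sodium channel subunit, from 0.123 ± 0.0894 to 16.7 ± 1.12, and Nid1, a basement membrane protein, from 0.623 ± 0.230 to 12.1 ± 1.49. Tnfrsf19 had 3 counts in Control and 800 in 5-FU+Saline. Among the genes lost, Pklr, the pyruvate kinase of red cells and liver, fell from 39.6 ± 1.66 to 0.188 ± 0.223 CPM, Sphk1, which makes sphingosine 1-phosphate, from 33.7 ± 1.78 to 0.976 ± 0.242, and Abcg4, a sterol transporter, from 12.2 ± 2.55 to 0.142 ± 0.193. Btnl10 had 452 counts in Control and 0 in 5-FU+Saline.

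Clock genes were lower in 11 of 16 cases and higher in 3 (background 32.7% and 32.8%). Per1, a repressor of the clock that is also switched on early by stress signals, was at 963, 998 and 989.9 CPM in Control and 328, 329 and 332 in 5-FU+Saline and fell 2.98-fold. Arntl (BMAL1), an activator, rose 1.72-fold, and Dbp, one of its targets, fell 1.46-fold. The hours at which marrow was taken are not given in the sources used here. Autophagy genes showed 6 higher and 11 lower of 22, with the adaptor Sqstm1 (p62) at 269.7, 256 and 257 CPM in Control and 127, 131 and 126 in 5-FU+Saline and the starter kinase Ulk1 2.57-fold lower. Among MHC class II genes 7 of 11 fell and 1 rose, with H2-Ob, which tempers peptide loading, falling from 85.5 ± 4.39 to 25.5 ± 2.36 CPM.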
